A study of Mus musculus with 8 samples.

Results

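The genes described are 32 genes of glycolysis and of the cellular response to low oxygen, read in cultured erythroid progenitors of the mouse. They were listed by name, and a probe was taken as belonging to one of them where it was not a control spot and its gene name on the array equalled the listed name. All 32 genes were found, with 56 probes. Of these genes 31 were among the 19141 genes that could be tested, and Adm was not, because its probe rarely stood above background.

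The progenitors came from fetal livers of C57BL/6 embryos at day E14.5. Lineage-positive cells and cells carrying Sca-1, CD16/32, CD41 or CD34 had been depleted, and c-Kit-positive cells within the lowest 10% of CD71 signal were then sorted. The sorted cells were infected with a virus, cultured for 3 days and lysed for RNA. Cells that received the control virus were grown either without or with DEX, and cells that received a virus encoding a first hairpin (shRNA1) or a second one (shRNA2) were grown with DEX, which makes 4 groups. DEX is the agent that the study uses as its glucocorticoid, and both hairpins were directed at one RNA-binding protein, which is Zfp36l2 from knowledge of the study and not from the labels. No hairpin was grown without DEX, and neither the vector nor the share of infected cells is given in the sources used here. Each group had 2 arrays, so 8 single-colour Agilent arrays were read in all. Replicate 1 of every group lay on slide 1 and replicate 2 on slide 2. The labels do not say whether replicates were separate cultures, so p-values measure only the spread between these arrays, and the small number of arrays limits every estimate.

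Glycolysis takes glucose in through transporters, phosphorylates and splits it in the preparatory steps, and recovers ATP and NADH in the payoff steps, after which pyruvate is reduced to lactate or enters mitochondria. Hypoxia-inducible factors (HIFs) are transcription factors whose alpha subunits are marked for destruction by oxygen-dependent prolyl hydroxylases, and they bind DNA at a short core that reads A or G followed by CGTG. Many glycolytic genes and several of the hydroxylases themselves are HIF targets, and red cell precursors, which lose their mitochondria as they mature, come to depend on glycolysis for ATP.

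Between 58.9% and 62.6% of probes were well above background on each array. Levels are given as log2 signal relative to the 75th percentile of the array, in the order slide 1 and slide 2, and levels of different probes are not compared. Zfp36l2 stood at 3.61 and 3.98 in the control without DEX, 5.70 and 5.56 in the control with DEX, 4.18 and 4.05 with shRNA1 and 4.25 and 3.86 with shRNA2. Its difference from the control with DEX was -1.52 for shRNA1 and -1.58 for shRNA2 (log2), and the arrays of each hairpin did not overlap the control arrays, although neither difference passed the test (limma, adjusted p 0.929 and 1). Of 10 listed erythroid markers 9 were tested, and all 9 were well above background on every array. All 15 listed granulocyte markers were tested too, and all 15 were well above background on every array, although myeloid cells had been depleted at the start of culture. In RNA from a mixed population, fewer cells of a type and less RNA per cell cannot be told apart.

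The promoters of the members that the results turn on are shown first, as the 250 bases upstream of the start site in RefSeq (GRCm38.p6), 5′ to 3′, with every HIF core in capitals. The cores searched were ACGTG and GCGTG on both strands, so CACGT and CACGC in capitals are cores on the other strand, and neighbouring cores can overlap. Egln3, Hif3a and P4ha2 are shown because they were the members furthest above the untreated control with DEX. Pdk1 and Ankrd37 are shown because they were at least 2-fold lower on both slides with shRNA1, and Pgk1 because it was a glycolytic enzyme with 2 ACGTG cores and lower readings with both hairpins. RefSeq gives Pdk1 2 starts, and the window of the one not shown (chr2:71874654-71874903) holds neither core.
Egln3 (chr12:54203875-54204124, minus strand): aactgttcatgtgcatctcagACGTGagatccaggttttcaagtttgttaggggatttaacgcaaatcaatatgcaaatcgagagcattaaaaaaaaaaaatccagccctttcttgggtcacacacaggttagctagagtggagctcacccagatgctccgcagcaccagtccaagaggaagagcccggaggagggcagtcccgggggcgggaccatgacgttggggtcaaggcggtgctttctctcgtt
Hif3a (chr7:17062428-17062677, minus strand): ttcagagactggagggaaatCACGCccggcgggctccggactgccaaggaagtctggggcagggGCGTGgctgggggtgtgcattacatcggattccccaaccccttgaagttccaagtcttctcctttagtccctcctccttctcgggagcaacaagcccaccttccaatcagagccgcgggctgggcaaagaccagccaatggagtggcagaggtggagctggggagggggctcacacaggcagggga
P4ha2 (chr11:54100674-54100923, plus strand): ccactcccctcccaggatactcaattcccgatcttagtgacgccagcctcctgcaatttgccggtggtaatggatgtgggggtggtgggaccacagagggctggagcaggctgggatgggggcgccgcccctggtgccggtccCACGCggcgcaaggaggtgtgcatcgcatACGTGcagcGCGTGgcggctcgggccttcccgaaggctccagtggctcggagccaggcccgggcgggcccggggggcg
Pdk1 (chr2:71872974-71873223, plus strand): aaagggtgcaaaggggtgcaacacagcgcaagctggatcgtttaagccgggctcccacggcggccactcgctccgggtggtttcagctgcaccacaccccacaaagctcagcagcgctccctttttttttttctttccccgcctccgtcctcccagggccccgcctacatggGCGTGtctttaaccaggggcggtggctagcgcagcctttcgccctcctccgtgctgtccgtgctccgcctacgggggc
Ankrd37 (chr8:45999851-46000100, minus strand): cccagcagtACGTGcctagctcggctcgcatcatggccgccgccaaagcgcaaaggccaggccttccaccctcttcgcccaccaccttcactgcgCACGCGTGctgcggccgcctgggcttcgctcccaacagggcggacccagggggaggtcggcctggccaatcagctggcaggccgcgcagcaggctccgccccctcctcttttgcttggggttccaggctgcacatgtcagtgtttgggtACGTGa
Pgk1 (chrX:106186850-106187099, plus strand): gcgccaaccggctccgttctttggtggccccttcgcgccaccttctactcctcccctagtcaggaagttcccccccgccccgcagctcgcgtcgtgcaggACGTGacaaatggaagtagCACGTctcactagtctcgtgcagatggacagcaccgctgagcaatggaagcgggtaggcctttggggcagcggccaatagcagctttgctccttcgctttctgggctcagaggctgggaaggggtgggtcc

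Promoters were matched for 30 of the 32 members, with 43 start sites, and none was matched for Slc2a3 or Ndrg1. At least 1 ACGTG core lay upstream of 17 of the 30 members, against 18.5% of the 27025 genes in the promoter table. Either core lay upstream of 28 of the 30 members, against 41.5% of all genes. Counted by start site, 36 of 43 member starts held either core, against 38.6% of the 32851 starts in the table. Gpi1 and Tpi1 were the members without a core in this window. The Egln3 window holds 1 ACGTG, the Hif3a window 2 GCGTG cores and the P4ha2 window 1 ACGTG and 2 GCGTG cores. The palindrome bound by the glucocorticoid receptor, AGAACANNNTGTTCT, was in 0 of the 43 member windows and in 0.00913% of all windows. These matches describe letters in a window and say nothing of binding in these cells.

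The first comparison asked how these genes stood after culture with DEX against culture without it, both with control virus. Egln3, a HIF prolyl hydroxylase, was 9.75-fold higher with DEX, Hif3a, an alpha subunit of which several isoforms restrain the other HIFs, was 2.89-fold higher, and P4ha2, a collagen prolyl hydroxylase, was 2.43-fold higher, a log2 difference of 1.28 that was 0.66 after normexp background correction. On the probe that stood for each gene, the enzymes of glycolysis itself stood close to the median of all genes. They lay between -0.22 and 0.64 on the log2 scale for the 9 of the preparatory steps and between -0.06 and 0.51 for the 4 of the payoff steps. Other Hk1 probes, however, gave 0.85 and 0.77. The glucose transporter Slc2a1 and the growth factor Vegfa were read lower with DEX on both slides. No member passed the test.

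In the fit without a slide term, 0 of 31 members and 0% of all genes had an adjusted p below 0.05 (limma, Benjamini-Hochberg over all genes), while 598 genes had an unadjusted p below 0.05, of which 3 were members. With the slide as a block, 45 genes were called, 0.235% of all tested, 28 higher and 17 lower with DEX, and 0 of them were members. That count changed with any 1 array left out, also an array of shRNA1 or shRNA2. Those groups are outside this comparison, so leaving out 1 of their arrays left every DEX difference unchanged. It altered only the estimate of the spread that all groups share. At least 2-fold higher on both slides were 3 of 31 members, against 1.69% of all genes, and at least 2-fold lower were 0, against 1.96%. Above the all-gene median on both slides were 16 members and below it 4, against 30.3% of all genes in either direction. Both arrays with DEX lay above both without it for 5 members (Pfkfb4, Hif3a, Egln1, Egln3 and P4ha2), against 10.8% of all genes, and below for 2 (Vegfa and Car9), against 15.6%. With the array median as the scale, these counts were 7 and 1, against 13.5% and 10.2% of all genes. The median of the 31 members lay 0.09 (log2) above the median of all genes, 0.11 on slide 1 and 0.17 on slide 2. In the fit without a slide term, leaving out 1 array sets 1 slide of a group against both slides of the other. The median then was 0.41 without control without DEX replicate 1 and -0.12 without its replicate 2. It was -0.10 without control with DEX replicate 1 and 0.38 without control with DEX replicate 2. These values therefore also hold the difference between the slides.

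**Figure D1:**
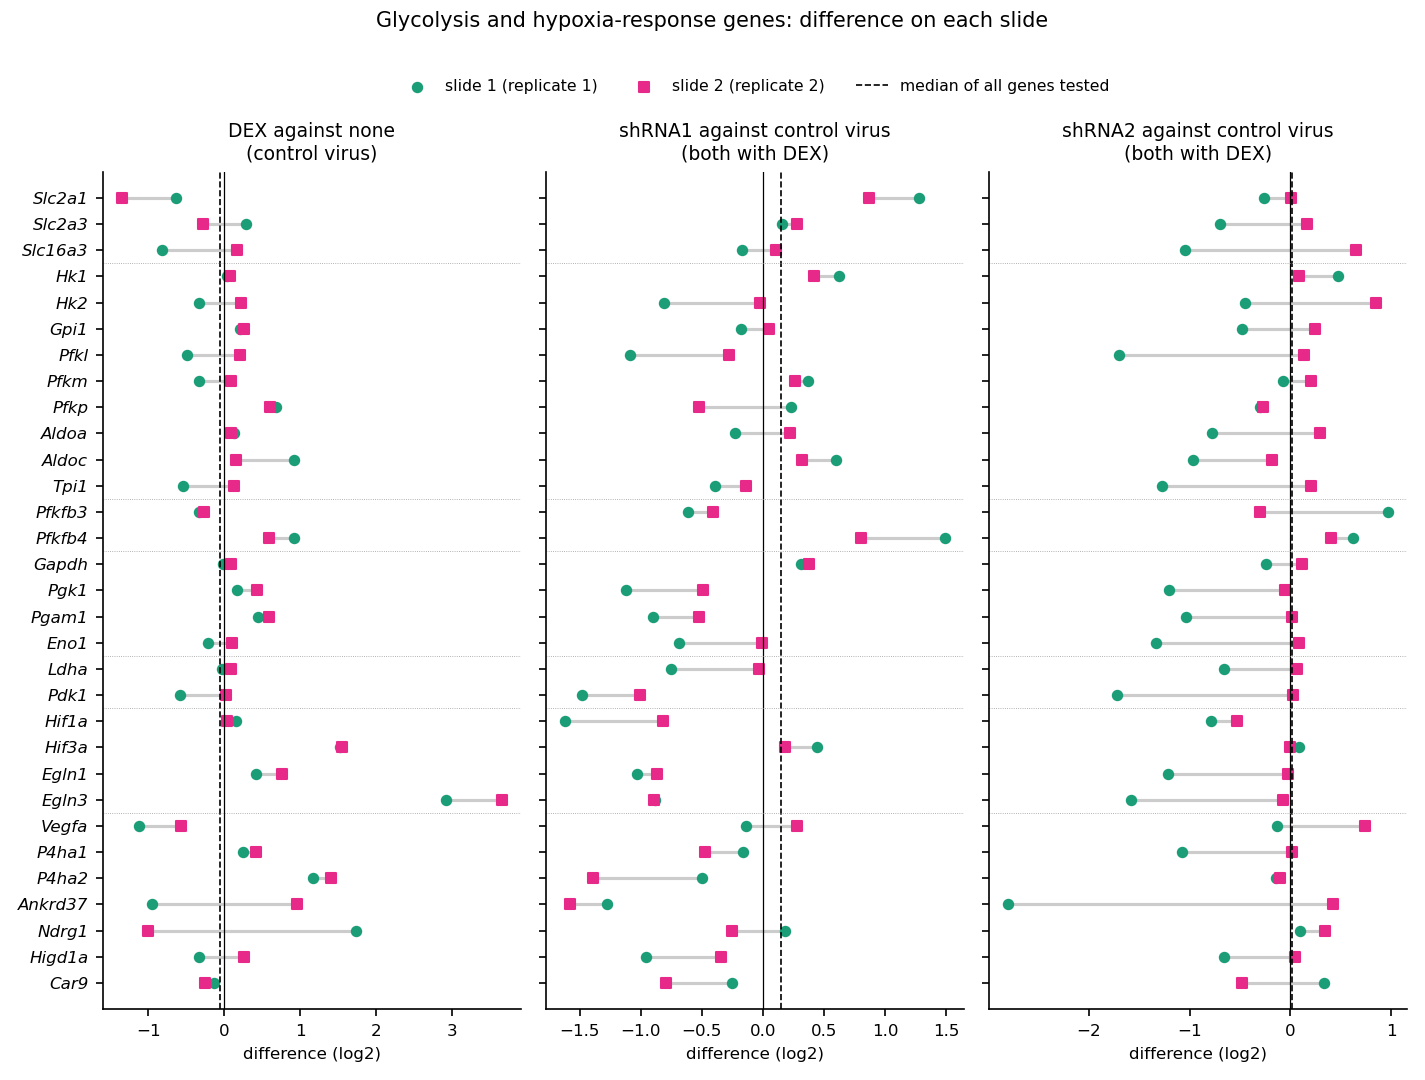
Difference of each of the 31 tested genes (log2, horizontal axis) on slide 1 (circles) and slide 2 (squares) for DEX against none, shRNA1 against control virus and shRNA2 against control virus. Dotted lines part the role groups, from transport at the top to other hypoxia genes at the bottom, and the dashed line is the median of all genes tested. Egln3 lies at 2.92 and 3.65 with DEX, and with shRNA2 many circles lie far left of their squares.

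Among the HIF subunits and their hydroxylases, all 4 genes lay above the all-gene median on both slides, with a group median 1.12 above it. Egln3 stood at -0.30 and -0.90 in the control without DEX, 2.61 and 2.75 in the control with DEX, 1.73 and 1.86 with shRNA1 and 1.04 and 2.67 with shRNA2. All 6 arrays with DEX lay above both arrays without it. The difference was 3.29 ± 0.56 (log2, SE, 95% interval 1.92 to 4.65), 2.92 on slide 1 and 3.65 on slide 2, with an adjusted p of 0.371 in limma and 0.0904 with the slide as a block. Its probes lie at chr12:55280953-55281012 and chr12:55281252-55281311 on the minus strand (mm9), and the second of these gave 3.25. The blocked fit called Egln3 after normexp background correction (difference 3.21, adjusted p 0.0336) and without either shRNA2 array (3.29, adjusted p 0.0241 in each case).

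Hif3a stood at 2.12 and 2.58 in the control without DEX, 3.64 and 4.12 in the control with DEX, 4.08 and 4.30 with shRNA1 and 3.72 and 4.12 with shRNA2. Again every array with DEX lay above both arrays without it, and the 6 arrays with DEX lay between 3.64 and 4.30. The difference was 1.53 ± 0.35 (log2, SE, 95% interval 0.69 to 2.38), 1.52 and 1.55 on the 2 slides, with an adjusted p of 0.652 in limma and 0.0596 with the slide as a block. The probe tested lies at chr7:17616855-17616914 on the minus strand (mm9), a second probe gave 1.52, and the one nearest the transcript's start gave 0.85. The blocked fit called Hif3a after normexp correction (1.51, adjusted p 0.0231) and in the authors' deposited table (1.56, adjusted p 0.0475).

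Egln1, the hydroxylase that sets most HIF turnover at normal oxygen, stood at -3.59 and -3.83 without DEX, -3.17 and -3.07 with DEX, -4.20 and -3.94 with shRNA1 and -4.38 and -3.09 with shRNA2. The control arrays with and without DEX did not overlap, and the difference was 0.59 ± 0.46 (log2, SE). Hif1a, the alpha subunit of the main oxygen-sensing factor, stood at -0.75 and -0.03 without DEX, -0.60 and 0.01 with DEX, -2.22 and -0.81 with shRNA1 and -1.39 and -0.51 with shRNA2. Its DEX difference was 0.09 ± 0.60 and the arrays of the control with and without DEX overlapped.

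P4ha2 stood at -4.92 and -4.79 in the control without DEX, -3.76 and -3.40 in the control with DEX, -4.26 and -4.79 with shRNA1 and -3.90 and -3.49 with shRNA2. Both control arrays with DEX lay above both without it, and one shRNA1 array was as low as the untreated ones. The DEX difference was 1.28 ± 0.34 (log2, SE, 95% interval 0.45 to 2.11), with an adjusted p of 0.860 in limma and 0.177 with the slide as a block. It was 0.66 after normexp correction and 0.78 in the authors' deposited table. This is a dim probe, at chr11:53945032-53945091 on the plus strand (mm9), and it was well above background on all 8 arrays. Its paralogue P4ha1 differed by 0.34 ± 0.69.

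The other hypoxia genes showed no common direction with DEX. Vegfa, the endothelial growth factor, differed by -0.85 ± 0.48 (-1.13 and -0.57 on the 2 slides), and the control arrays with and without DEX did not overlap. Car9, a membrane carbonic anhydrase, differed by -0.20 ± 0.38. Ankrd37, a small ankyrin-repeat gene induced by HIF, differed by -0.95 on slide 1 and 0.96 on slide 2, and Ndrg1, a stress-response gene, by 1.73 and -1.0, so neither had a direction. Higd1a, a mitochondrial inner membrane protein, differed by -0.03 ± 0.51. Adm, the vasodilator peptide adrenomedullin, was well above background on 1 of 2 arrays of the control without DEX, 1 of 2 with shRNA2 and on no other, at levels between -6.56 and -4.07, and was not tested.

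In transport, Slc2a1, the main glucose carrier of erythroid cells, differed by -1.0 ± 1.11, and by -0.64 and -1.35 on the 2 slides. Its levels were 5.74 and 4.45 without DEX, 5.10 and 3.10 with DEX, 6.38 and 3.97 with shRNA1 and 4.84 and 3.10 with shRNA2. The groups overlapped because slide 2 was read lower than slide 1 in every group, and with the slide as a block the adjusted p was 0.336. Slc2a3, a second glucose carrier, differed by 0.01 ± 0.69 and Slc16a3, which exports lactate, by -0.33 ± 0.60.

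In the preparatory steps, Pfkp, the platelet form of phosphofructokinase, differed by 0.64 ± 1.05 with 0.68 and 0.60 on the 2 slides but by 0.02 on its second tested probe, while its sister forms Pfkl and Pfkm differed by -0.14 ± 0.60 and -0.12 ± 0.31. Hk1 and Hk2, which phosphorylate glucose, differed by 0.05 ± 0.68 and -0.06 ± 0.71, but the other tested Hk1 probes gave 0.85 and 0.77. Gpi1, the isomerase of the next step, differed by 0.23 ± 0.47. The aldolases Aldoa and Aldoc differed by 0.10 ± 0.57 and 0.53 ± 1.71, and Tpi1, which interconverts the triose phosphates, by -0.22 ± 0.51. Of the enzymes that make and break fructose-2,6-bisphosphate, the activator of phosphofructokinase, Pfkfb4 differed by 0.75 ± 0.60 with non-overlapping control arrays and Pfkfb3 by -0.30 ± 0.56.

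In the payoff steps, Pgam1, the mutase, differed by 0.51 ± 0.38 and Pgk1, which makes the first ATP, by 0.30 ± 0.41. Gapdh and Eno1, the dehydrogenase and the enolase, differed by 0.03 ± 0.42 and -0.06 ± 0.49. Ldha, which reduces pyruvate to lactate, differed by 0.03 ± 0.38, and Pdk1, the kinase that keeps pyruvate out of mitochondria, by -0.28 ± 0.65. None of these differences passed the test. That of Pgam1 was larger than its SE and had the same sign on both slides (0.44 and 0.58), and the control arrays with and without DEX overlapped.

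Markers of other cells moved between the same arrays. Of 9 erythroid markers tested, 8 lay below the all-gene median on both slides with DEX, and 10 of 13 proliferation genes did so. Granulocyte markers summed to 126 and 247 (scaled signal, slides 1 and 2) without DEX and to 128 and 119 with it, and 8 of 15 lay below the all-gene median on both slides. So did 7 of 9 monocyte and macrophage markers, 8 of 10 megakaryocyte markers and 5 of 6 mast cell and basophil markers, against 30.3% of all genes. The 2 lymphoid markers tested of 5 summed to between 0.326 and 1.12 on the 8 arrays. Hepatocyte markers summed to 1.29 and 1.13 without DEX and to 2.90 and 1.60 with it, with 4 of 5 tested above the all-gene median on both slides, while Alb, Ttr and Fgb of that list were not tested. The part of these cells in the differences of Egln3, Hif3a and P4ha2 was not tested.

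The second comparison set shRNA1 against the control virus, both with DEX, and so shares its control arrays with the first. Most members were read lower with shRNA1: Ankrd37 was lower by 1.43, Pdk1 by 1.25, Hif1a by 1.22 and Egln1 and P4ha2 by 0.95 each on the log2 scale, although the last 2 were lower by only 0.15 and 0.24 after normexp correction. The payoff enzymes Pgk1, Pgam1 and Eno1, the lactate dehydrogenase Ldha and the phosphofructokinase Pfkl were lower too, without overlap between the groups. Against that direction stood Pfkfb4, higher by 1.14, and Slc2a1, higher by 1.07. No member passed the test.

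Without a slide term 0 of 31 members and 0% of genes were called, against 396 genes at an unadjusted p below 0.05, 1 of them a member (limma). With the slide as a block the share called was again 0% of genes and no member, although 3281 genes had an unadjusted p below 0.05. At least 2-fold lower on both slides were 2 of 31 members (Pdk1 and Ankrd37), against 0.663% of all genes, and at least 2-fold higher were 0, against 2.90%. Below the all-gene median on both slides were 19 members and above it 7, against 37.3% of all genes in either direction. Both shRNA1 arrays lay below both control arrays for 13 members, against 8.29% of all genes, and above for 2 (Pfkm and Pfkfb4), against 16.5%. With the array median as scale these counts were 13 and 1, against 11.8% and 8.52% of all genes. The all-gene median itself moved with the scale, from 0.15 against the 75th percentile to -0.23 against the array median and -0.01 after quantile normalization, so the members are best read against it. Their median lay 0.46 below it, 0.45 on slide 1 and 0.24 on slide 2. It lay 0.28 below it without control with DEX replicate 1 in the fit without a slide term, where differences between the slides enter.

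Among the HIF genes, Hif1a differed by -1.22 ± 0.60 (log2, SE), -1.62 on slide 1 and -0.82 on slide 2, and both shRNA1 arrays lay below both control arrays. Its adjusted p was 0.929 in limma and 0.240 with the slide as a block. A second Hif1a probe, well above background on 6 of 8 arrays, gave -0.56. In the blocked fit the tested probe gave -0.88 without shRNA1 with DEX replicate 1 and -1.56 without replicate 2. Egln1 differed by -0.95 ± 0.46, -1.03 and -0.87 on the 2 slides, with an adjusted p of 0.929 and 0.293 with the block, but after normexp correction the difference was -0.15. Egln3 differed by -0.88 ± 0.56 with no overlap, and Hif3a by 0.31 ± 0.35. These 4 genes thus stood differently against the control with DEX, 3 lower and Hif3a slightly higher on both slides.

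P4ha2 had the smallest unadjusted p of the members in the fit without the block (0.0311), while with the block Hif1a (0.00369), Pfkfb4 (0.00782) and Slc2a1 (0.0135) came before it (0.0179), all from limma. The P4ha2 difference was -0.95 ± 0.34 (95% interval -1.77 to -0.12), -0.50 and -1.39 on the 2 slides. Its adjusted p was 0.929 in limma and 0.264 with the block. The difference was -0.24 after normexp correction, and in the blocked fit it was -0.53 without shRNA1 with DEX replicate 2 and -1.36 without replicate 1. Ankrd37 stood at 1.03 and -0.70 in the control without DEX, 0.08 and 0.26 in the control with DEX, -1.20 and -1.32 with shRNA1 and -2.72 and 0.69 with shRNA2. The shRNA1 arrays lay together below the control arrays with DEX, but the spread in the other groups was wide, and the difference was -1.43 ± 1.12 (adjusted p 0.929 in limma). Its probe lies at chr8:47082404-47082463 on the minus strand (mm9). Among the rest, Higd1a differed by -0.65 ± 0.51, Car9 by -0.52 ± 0.38, P4ha1 by -0.32 ± 0.69, Ndrg1 by -0.03 ± 0.86 and Vegfa by 0.07 ± 0.48.

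Pdk1 stood at 1.22 and 0.80 in the control without DEX, 0.63 and 0.82 in the control with DEX, -0.85 and -0.19 with shRNA1 and -1.08 and 0.86 with shRNA2. Both shRNA1 arrays lay below all 4 control arrays, and shRNA2 did so on slide 1 only. The shRNA1 difference was -1.25 ± 0.65 (0.421-fold, 95% interval -2.83 to 0.33), with an adjusted p of 0.929 in limma and 0.309 with the block. The probe lies at chr2:71739688-71739747 on the plus strand (mm9). Ldha, at the same branch point, differed by -0.39 ± 0.38, on this probe nearly all of it on slide 1 (-0.75 against -0.03). Its other tested probes were lower on slide 2 too, with -1.77 and -0.76 for 1 and -0.1 and -0.52 for the other.

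Pgk1 stood at 6.46 and 5.93 without DEX, 6.63 and 6.36 with DEX, 5.51 and 5.87 with shRNA1 and 5.43 and 6.32 with shRNA2. The arrays of both hairpins lay below both control arrays with DEX, narrowly so for shRNA2 on slide 2. With shRNA1 the difference was -0.80 ± 0.41 (adjusted p 0.929, and 0.320 with the block). The annotation places this probe on chromosome 3 (chr3:57906830-57906894, mm9) while the gene's start in RefSeq is on chromosome X, so a copy of Pgk1 elsewhere may share its signal. Pgam1 differed by -0.71 ± 0.38 and Eno1 by -0.35 ± 0.49, both without overlap, and Gapdh by 0.35 ± 0.42.

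Of the preparatory enzymes, Pfkl differed by -0.68 ± 0.60 and Tpi1 by -0.26 ± 0.51, both without overlap. A second tested Tpi1 probe gave -0.78 (-1.12 and -0.45 on the 2 slides). Hk2 differed by -0.42 ± 0.71, Pfkp by -0.14 ± 1.05 and Gpi1 by -0.07 ± 0.47, and Aldoa by -0.23 on slide 1 and 0.22 on slide 2. Hk1, Pfkm and Aldoc were read higher, by 0.52 ± 0.68, 0.32 ± 0.31 and 0.46 ± 1.71. Pfkfb4 differed by 1.14 ± 0.60 (1.49 and 0.80 on the 2 slides, adjusted p 0.929, and 0.244 with the block), and Pfkfb3 by -0.51 ± 0.56. In transport Slc2a1 differed by 1.07 ± 1.11, 1.28 and 0.87 on the 2 slides, with an adjusted p of 0.251 with the block. Slc2a3 and Slc16a3 differed by 0.22 ± 0.69 and -0.03 ± 0.60.

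**Figure D2:**
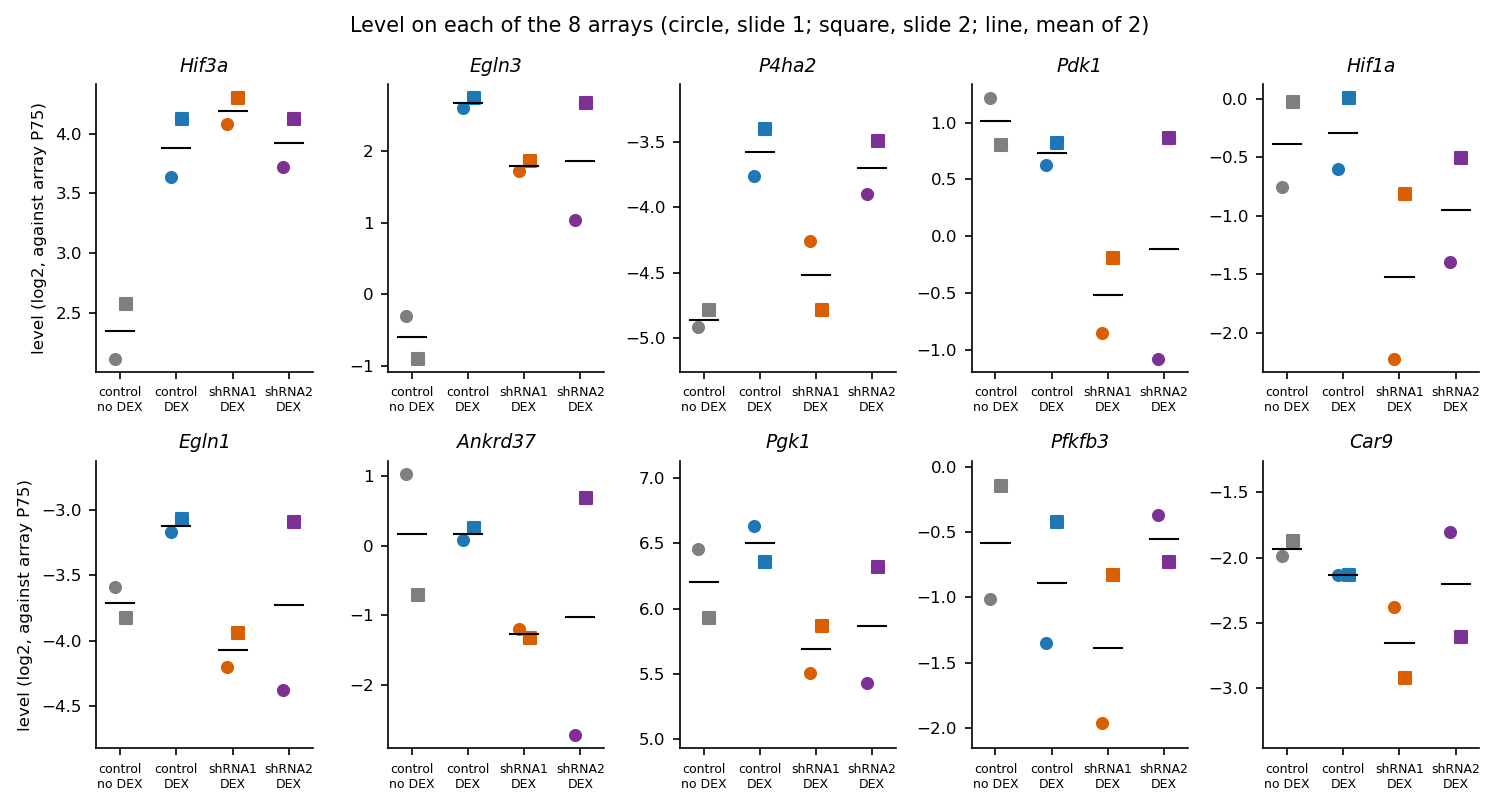
Level on each of the 8 arrays (log2 against the 75th percentile of the array, vertical axis) of the 10 genes described with all their values, with slide 1 as circles, slide 2 as squares and the mean of 2 as a line. Each panel has its own axis. Egln3 and Hif3a are lowest on the arrays without DEX, and the shRNA2 arrays lie far apart for Pdk1, Egln1 and Ankrd37.

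Some cell markers moved with shRNA1 as well. All 15 granulocyte markers lay above the all-gene median on both slides, and their summed signal was 320 and 225 with shRNA1 against 128 and 119 in the control with DEX. Erythroid markers summed to 1853 and 737 against 936 and 475, with 6 of 9 above the all-gene median on both slides. Monocyte and macrophage markers lay above it on both slides in 8 of 9 cases, megakaryocyte markers in 5 of 10, mast cell and basophil markers in 3 of 6 and hepatocyte markers in 1 of 5. Below it on both slides were 0, 1, 3 and 3 markers of these 4 lists. Of all genes 37.3% lay above it on both slides and 37.3% below, so the last 2 lists had no common rise. Of 13 proliferation genes 8 lay below that median on both slides, and their sum was 152 against 219 on slide 1 and 409 against 367 on slide 2. The part of these cells in the lower readings of Pdk1, Hif1a, Egln1 and the other members was not tested.

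The third comparison set shRNA2 against the same control arrays with DEX. The members split by slide: on slide 1 their median lay 0.69 below that of all genes, and on slide 2 it lay 0.05 above it. Pdk1 differed by -1.72 on slide 1 and 0.03 on slide 2, Pfkl by -1.70 and 0.14, Eno1 by -1.33 and 0.09 and Tpi1 by -1.27 and 0.21. Ankrd37 differed most, by -2.80 and 0.42. No member passed the test, and the lower reading rests on slide 1, on the control array as well as on the shRNA2 array. As deviations within that slide relative to all genes, the members' median was 0.36 in the control with DEX and -0.29 with shRNA2.

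Without the slide term 0 of 31 members and 0% of genes were called, with 243 genes and 0 members at an unadjusted p below 0.05 (limma). With the slide as a block 1 gene was called, 0.00522% of all, and it was no member. Without shRNA2 with DEX replicate 2 that count was 9, and without any other single array it was 0. No member was at least 2-fold higher or lower on both slides, against 0.789% and 0.256% of all genes. Above the all-gene median on both slides were 3 members and below it 8, against 25.9% of all genes in either direction, while 20 lay on different sides of it on the 2 slides. The members' median lay 0.28 below that of all genes. In the fit without a slide term it was 0.01 without shRNA2 with DEX replicate 1 and -0.42 without shRNA2 with DEX replicate 2. It was -0.14 without control with DEX replicate 1 and -0.53 without control with DEX replicate 2. Differences between the slides enter these left-out values.

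With the block Hif1a had the smallest unadjusted p of the members (0.0443 in limma, adjusted 0.776), and without it Pgk1 did (0.181). Pgk1 differed by -0.62 ± 0.41 (log2, SE, -1.20 and -0.05 on the 2 slides). Egln3 differed by -0.83 ± 0.56 (-1.58 and -0.07) and Egln1 by -0.62 ± 0.46 (-1.21 and -0.02). Each of these had an adjusted p of 1 in limma and 0.776 with the slide as a block. In the blocked fit without shRNA2 with DEX replicate 1 the differences were -0.11 for Pgk1, 0.05 for Egln3 and 0.01 for Egln1. Without replicate 2 they were -1.13, -1.7 and -1.24. Egln1 was also at 0.02 after normexp correction. Hif1a was read lower on both slides, by 0.79 and 0.53, with a difference of -0.66 ± 0.60, and P4ha2 differed by -0.12 ± 0.34 and Hif3a by 0.05 ± 0.35. Pfkfb4 and Hk1 lay above the all-gene median on both slides, with differences of 0.51 ± 0.60 and 0.28 ± 0.68, as did Ndrg1 with 0.22 ± 0.86. The other tested Hk1 probes split by slide, at -0.15 (-0.71 and 0.41) and -0.06 (-0.45 and 0.34).

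The other members had differences between -0.84 for Pdk1 and 0.33 for Pfkfb3, apart from Ankrd37 at -1.19 ± 1.12. By role, the group median relative to all genes was -0.74 on slide 1 and 0.15 on slide 2 for transport, -0.51 and 0.20 for the preparatory enzymes, -1.14 and 0.04 for the payoff enzymes, -1.22 and 0.04 for Ldha and Pdk1 and -1.03 and -0.06 for the HIF genes. The other hypoxia genes lay at -0.17 and 0.04 and the Pfkfb enzymes at 0.77 and 0.04.

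On that slide 1 array of shRNA2, granulocyte markers summed to 764, against 128 in the control with DEX on the same slide, and on slide 2 to 151 against 119. All 15 lay above the all-gene median on both slides, against 25.9% of all genes. Monocyte and macrophage markers summed to 15.6 against 3.52 on slide 1 and 2.29 against 1.64 on slide 2, and megakaryocyte markers to 215 against 34.9 and 17.1 against 21.4. Mast cell and basophil markers summed to 12.5 against 6.48 and 2.15 against 2.18. Proliferation genes summed to 123 against 219 on slide 1 and 372 against 367 on slide 2. Apart from mast cell and basophil markers, which summed to 12.6 with shRNA1 on slide 1, these lists moved most on the array where Pdk1, Pfkl, Eno1 and Tpi1 were low. The part of these cells in those readings was not tested.

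**Figure D3:**
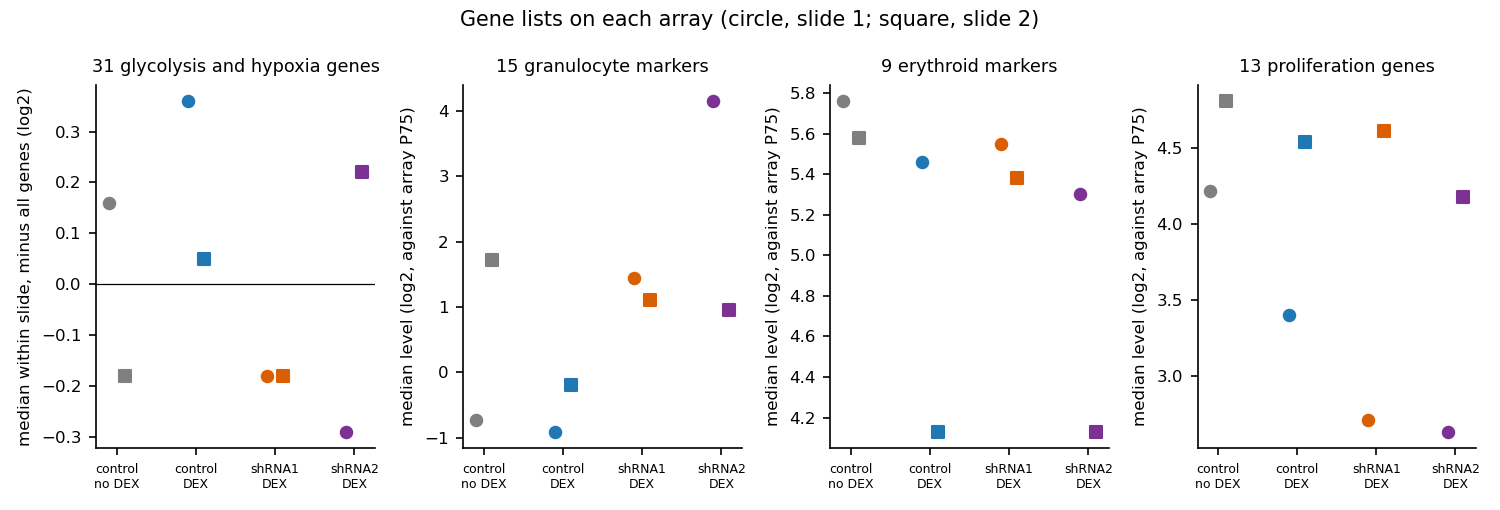
Median on each array of the 31 tested glycolysis and hypoxia genes (left, deviation from the mean of the 4 arrays of the slide, minus the same median over all genes, log2) and median level of 3 marker lists (log2 against the 75th percentile of the array). Circles are slide 1 and squares slide 2. The shRNA2 array of slide 1 is lowest on the left, at -0.29, and highest for granulocyte markers, at 4.15. The slide 1 array of the control with DEX is highest on the left, at 0.36.

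The fourth comparison set shRNA1 directly against shRNA2, which tests whether the hairpins differed. The members went in no common direction: Slc2a1 was read higher with shRNA1 by 1.20 ± 1.11 and Aldoc by 1.03 ± 1.71, while Pfkfb3 was lower by 0.84 and P4ha2 by 0.82. No member passed the test, with or without the block, and 0% of genes were called in either fit (limma, with 435 genes and 0 members at an unadjusted p below 0.05 without the block). At least 2-fold different on both slides were 0 members in either direction, against 1.38% of genes higher and 0.350% lower. Above the all-gene median on both slides were 7 members and below it 10, against 32.6% of all genes in either direction. The median of the members lay 0.05 below that of all genes, 0.26 above it on slide 1 and 0.39 below it on slide 2. In the fit without a slide term it was -0.55 without shRNA2 with DEX replicate 1 and 0.15 without shRNA2 with DEX replicate 2. It was -0.10 without shRNA1 with DEX replicate 1 and -0.20 without shRNA1 with DEX replicate 2. Differences between the slides enter these left-out values.

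P4ha2 differed between the hairpins by -0.82 ± 0.34 (log2, SE, -0.36 and -1.29 on the 2 slides), with both shRNA1 arrays below both shRNA2 arrays and an adjusted p of 1 in limma and 0.432 with the block. It was -0.43 after normexp correction and -0.52 in the authors' deposited table. Pfkfb3 stood at -1.01 and -0.15 without DEX, -1.35 and -0.42 with DEX, -1.96 and -0.83 with shRNA1 and -0.37 and -0.73 with shRNA2. The hairpin arrays did not overlap, and the difference was -0.84 ± 0.56, nearly all of it on slide 1 (-1.58 against -0.10). A second Pfkfb3 probe gave -0.16. In the blocked fit the tested one gave -0.52 without shRNA1 with DEX replicate 1 and -0.18 without shRNA2 with DEX replicate 1. Car9 stood at -1.99 and -1.87 without DEX, -2.13 and -2.13 with DEX, -2.38 and -2.92 with shRNA1 and -1.80 and -2.61 with shRNA2. The hairpins thus overlapped and differed by -0.44 ± 0.38. In the blocked fit the Car9 difference was -0.11 without shRNA2 with DEX replicate 1 and -0.78 without its replicate 2. For Slc2a1 the blocked interval was narrower than the unblocked one, with an SE of 0.30 against 1.11, and its adjusted p with the block was 0.352.

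Of the members 13 had several tested probes, and the gene's value is that of the brightest. Probes of a gene differed in direction in some cases and in size in others. The Pfkp probe that stood for the gene gave -0.14 with shRNA1 and -0.28 with shRNA2, while the other gave 0.38 and 0.34. For Pfkfb3 with shRNA1 the values were -0.51 and 0.07. With shRNA2 the Hk1 probe that stood for the gene gave 0.28, while the other 2 gave -0.15 and -0.06. With DEX the tested Hk1 probe, nearest the 3′ end of its transcript, gave 0.05 while the other 2 gave 0.85 and 0.77. With shRNA1 the tested Ldha probe gave -0.39 and another gave -1.27. Gapdh had 8 probes: with shRNA1 those starting at bases 156 and 239 of the transcript gave -0.41 and -0.39, and those at bases 1164 and 1175 gave 0.19 and 0.35. Why probes of 1 gene differed was not tested. Gapdh and Pgk1 also have near-identical copies in the genome, and 2 Gapdh probes are placed on chromosomes 7 and 8, so their values are uncertain to that extent. The 2 Vegfa probes gave 0.07 and 0.93 with shRNA1, while with DEX they gave -0.85 and -0.78.

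**Figure D4:**
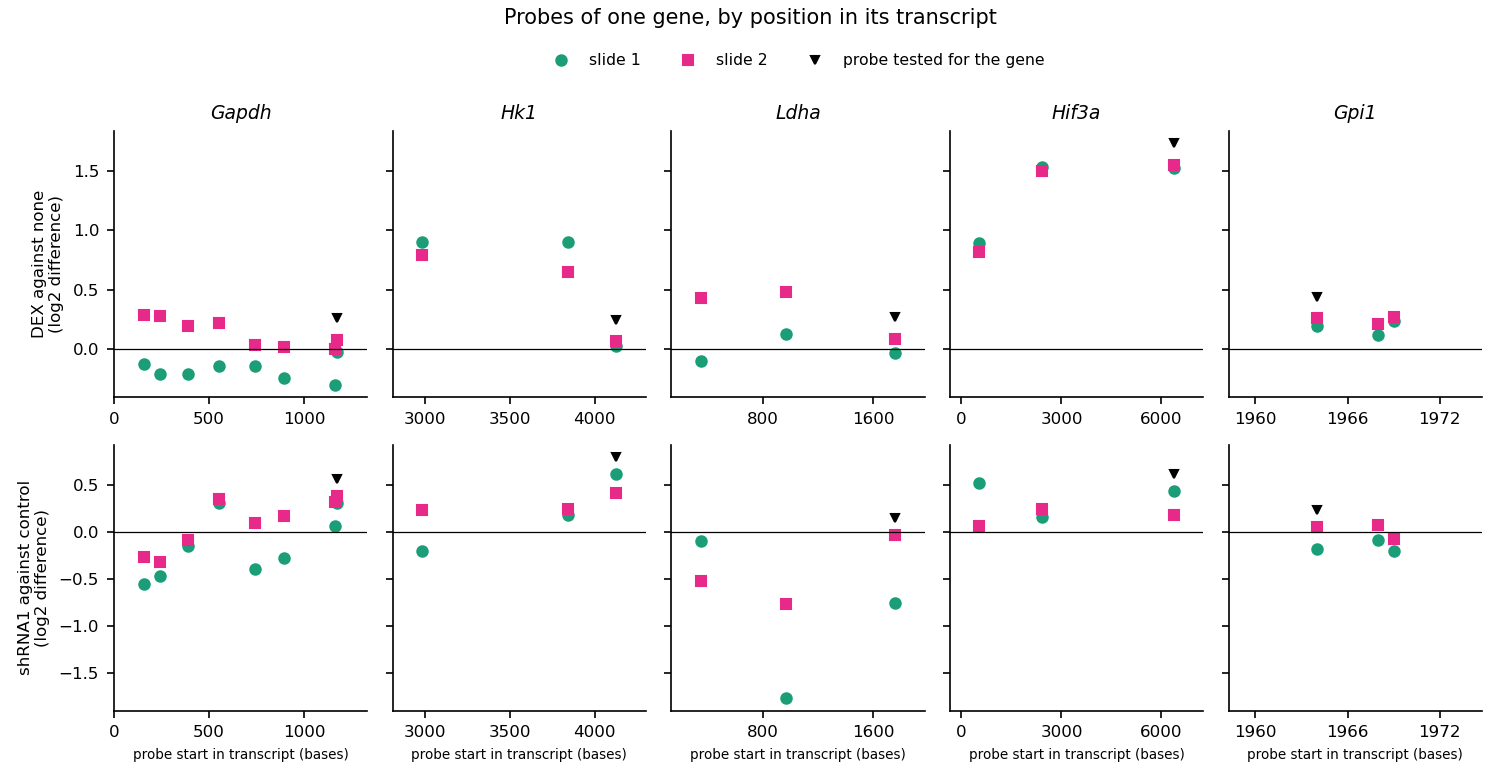
Difference given by each tested probe (log2, vertical axis) of 5 members, placed by where the probe starts in its transcript (bases, horizontal axis), with DEX (top) and with shRNA1 (bottom). Circles are slide 1, squares slide 2, and the triangle marks the probe that stood for the gene. All 3 Hif3a probes lie above 0 with DEX, whereas the Hk1 probes differ from one another.

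Other genes of the same pathways were read from lists that overlap no member. Of 38 other hypoxia-response genes tested, 1 was called with DEX in the blocked fit: Anxa2, a calcium-dependent membrane-binding annexin, which in that fit rose, with a difference of 3.03 ± 0.53 (log2, SE, 3.22 and 2.84 on the 2 slides, adjusted p 0.0285 with the slide as a block and 0.381 without). On both slides 9 of the 38 lay above the all-gene median and 11 below, against 30.3% of all genes in either direction. None of 18 other glycolysis genes, 12 genes of pyruvate entry into mitochondria or 8 of the pentose phosphate pathway was called with DEX. Slc2a4, the insulin-responsive glucose carrier, differed by -2.87 ± 0.51 (-2.79 and -2.94, adjusted p 0.0596 with the block), Hk3, a hexokinase of myeloid cells, by -1.76 ± 1.00, Pcx, pyruvate carboxylase, by -1.09 ± 0.36 and Pdk2, a paralogue of Pdk1, by -0.92 ± 1.05. In the pentose phosphate pathway H6pd differed by -0.24 ± 0.45 and Tkt by 0.13 ± 0.28.

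With shRNA1 none of these 76 genes was called in either fit. On both slides 19 of the 38 hypoxia genes, 9 of the 12 genes of pyruvate entry and 6 of the 8 of the pentose phosphate pathway lay below the all-gene median. So did 7 of the 18 other glycolysis genes and 37.3% of all genes. Above it on both slides were 7, 2, 0 and 9 genes of these lists in the same order, against 37.3% of all genes. Slc2a4 differed by 1.95 ± 0.51, Anxa2 by -1.17 ± 0.53, Kctd11 by 0.72 ± 0.36, Pcx by 0.67 ± 0.36 and Pdk3 by -0.63 ± 0.43, and Pgd and Rpia of the pentose phosphate pathway by -0.45 ± 0.41 and -0.49 ± 0.51. Galm, which interconverts the anomers of hexoses, differed by -1.13 ± 0.48 (adjusted p 0.929 in limma), and it was not well above background on either shRNA1 array. With shRNA2 none was called either, and Hk3 differed by 1.94 ± 1.00, Ldhb by 1.24 ± 0.85, Cxcr4 by 1.74 ± 1.00, Narf by -0.68 ± 0.41, Pcx by -0.95 ± 0.36, Pdk3 by -0.62 ± 0.43, H6pd by 0.29 ± 0.45 and Rpe by -0.53 ± 0.46. Between the hairpins none was called, and Slc2a4 differed by 1.97 ± 0.51, Pcx by 1.62 ± 0.36, Bhlhe40 by -1.35 ± 0.62, Kctd11 by 0.91 ± 0.36, H6pd by -0.63 ± 0.45, Pgd by -0.40 ± 0.41 and Mpc1 by -0.32 ± 0.37. Galm, near background with shRNA1, differed by -1.16 ± 0.48.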

How the data were processed

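Single-colour Agilent arrays of 8 samples, 4 groups of 2, were scanned and quantified with Agilent Feature Extraction 10.1.1.1, per the file headers, which also give mm9 probe positions. The deposited scanner values are intensities (gProcessedSignal, background-subtracted by the authors' software, per the file headers). The authors' deposited value table, on a log2 scale and ranked identically to the scanner's median signals, was an alternative. How its log2 values were normalized is not given in the sources used here.

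Of 44397 spots per array 1377 were controls and were left out, as were 441 of 39429 probes without a usable spot on some array. Levels were log2 intensity minus the array's 75th percentile. Accessions gave current names to 26581 probes, while the other 12848 were left with their array name. Testing required both arrays of some group to be well above background for a probe, and the brightest such probe stood for its gene, which gave 19141 genes, 3902 of them with several probes. Exons and UTRs were not assigned, since no mm9 annotation was used.

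Groups were compared in 1 fit over all arrays with limma 3.58.1 in R 4.3.3 (lmFit, eBayes, Benjamini-Hochberg over all genes, adjusted p below 0.05), checked on simulated data. SEs and 95% intervals come from that fit. The replicate number is the slide, and replicate deviations correlated between every pair of groups (0.43 to 0.86), so the numbers pair the arrays and a fit with the slide as a block is given beside it. Each slide holds all 4 groups, so per-slide differences are within-batch values. Alternatives were the array median or quantile normalization as the scale, normexp correction with an offset of 50, the authors' table, no filter on dim probes, the mean over probes, and each array left out.

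The members, the gene lists and the tests were chosen with earlier results of these data known. Members were described with every array value if they were called, differed at least 2-fold the same way on both slides, or were among the 3 smallest unadjusted p of a comparison. Of the other lists, genes that were called or had the 2 smallest p were named. One such gene is not reported here. Slc2a1 was added after its values were seen. Blocked counts over all genes under each alternative, and non-overlap counts with another scale, were added after seeing the data. Lists tested: erythroid, granulocyte, monocyte and macrophage, megakaryocyte, mast cell and basophil, hepatocyte and lymphoid markers, and proliferation genes. RefSeq promoters were read with pandas 2.3.3, and figures drawn with matplotlib 3.10.9.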

Additional observations from a re-analysis of the deposited data

How the results depend on the processing

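With the slide as a block (the paired fit, in which the replicate number is the slide), calls over all genes went from 0 to 45 with DEX and from 0 to 1 with shRNA2, and stayed at 0 for shRNA1 and between the hairpins. The members called with that block, 0 with DEX, were 2 after normexp correction, 1 in the authors' deposited table and from 0 to 1 with single arrays left out, and 0 under every alternative run in the other comparisons. The 45 blocked DEX calls became 112 with the array median, 16 with quantile normalization, 166 with normexp, 73 in the authors' deposited table, 0 without the dim-probe filter and 0 to 129 with single arrays left out. The single blocked shRNA2 call was 0 with the array median, quantile, normexp, the authors' table and no filter, and 0 to 9 with arrays left out. Between the hairpins normexp gave 1. The members' median relative to all genes ranged from -0.12 to 0.41 with DEX, -0.60 to -0.28 with shRNA1, -0.53 to 0.01 with shRNA2 and -0.55 to 0.15 between the hairpins with arrays left out, and it was -0.62 with shRNA1 without the dim-probe filter. The ranges with arrays left out come from the fit without the block, so differences between the slides enter them. Of 210 alternative values for the 14 member differences described in full, with the block counted as an alternative to the fit without it, 208 kept their direction. Many of these values could not change. The block leaves a difference as it was, and so does leaving out an array outside the comparison. The mean over probes also changes nothing for a gene with a single tested probe. The count therefore says little about how firm the directions are. None of the differences was past the threshold without the block, so keeping a side of it says little. Among the alternatives that kept all arrays, sizes moved most with normexp. Egln1 with shRNA1 went from -0.95 to -0.15. P4ha2 went from -0.95 to -0.24 with shRNA1, from 1.28 to 0.66 with DEX and from -0.82 to -0.43 between the hairpins. Single arrays moved sizes as well. In the blocked fit, Egln3 with shRNA2 went from -0.83 to 0.05 without shRNA2 replicate 1 and to -1.7 without replicate 2. Pfkfb3 between the hairpins went from -0.84 to -0.18 and -1.5 in the same way. In the fit without the block Egln1 with shRNA2 reversed, to 0.02 with normexp and to 0.03 without shRNA2 with DEX replicate 1. Its range in that fit was -1.26 to 0.03 with single arrays left out. The cause of these changes was not tested. With 2 arrays a group the median SE over genes was 0.49 (log2) without the block and 0.26 with it, which limits what could be called.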
